A study of Mus musculus with 4 samples.

Results

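The MHC class I pathway was examined through 10 genes, matched by symbol, out of 54532 genes in the count table. They were the heavy chain genes H2-K1 and H2-D1, the light chain gene B2m, the peptide transporter genes Tap1 and Tap2, the tapasin gene Tapbp, the immunoproteasome genes Psmb8, Psmb9 and Psmb10, and Nlrc5, the transactivator of class I genes. Counts came from bulk RNA-seq of alveolar macrophages (AMs), which reside in the airspace of the lung, isolated from wild-type (WT) female mice. The Control group held 2 libraries, from mice that had received no tumor. The Tumor group held 2 libraries, from mice given 4T1 cells 2 weeks before, 4T1 being a mouse mammary carcinoma line that metastasizes to the lung. Per the methods of the study, WT mice were on the BALB/c background and 8 to 10 weeks of age, and the 4T1 cells had been placed in a mammary fat pad. In a staining of AMs isolated from such lungs, the study describes the cells as CD45+ CD11b- CD11c+ SiglecF+. A separate gate for the sequenced cells and the number of mice behind a library were not given in the sources used here. Adjusted p-values therefore measure only the spread between these libraries, which may be technical.

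MHC class I molecules display peptides from proteins made inside the cell to CD8+ T cells. Proteins are cut by the proteasome, the peptides are pumped into the endoplasmic reticulum by the TAP1 and TAP2 transporter, and tapasin holds this transporter close to class I heavy chains that wait for a peptide together with beta-2-microglobulin. Under interferon-gamma, the catalytic subunits PSMB5, PSMB6 and PSMB7 are replaced in new proteasomes by PSMB8, PSMB9 and PSMB10, which alters the peptides that are cut. NLRC5 acts at class I promoters together with RFX, CREB and NF-Y factors.

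Total counts ranged from 16167147 to 19205737 per library. Levels below are CPM, the counts of a gene relative to the TMM-scaled size of its library, and a gene was called when its Benjamini-Hochberg adjusted p in edgeR's quasi-likelihood test over all 14256 genes tested was under 0.05. The 14 AM markers, among them Siglecf, Mrc1 and Chil3, were detected in both groups, and summed to 16427 and 16572 CPM in Control and to 12565 and 12707 CPM in Tumor libraries, with 12 lower and 1 higher in Tumor. Markers of other cells were also higher in the Tumor libraries. The summed level of 10 neutrophil markers went from between 9.87 and 10.01 CPM to between 3752 and 3794 CPM, with 1 marker at 0 counts in both Control libraries. That of 5 eosinophil markers went from between 0.634 and 0.640 CPM to between 2629 and 2669 CPM, and that of 7 hepatocyte markers from between 0.0533 and 0.190 CPM to between 606.4 and 608.2 CPM, with 6 of the 7 at 0 counts in both Control libraries. Of 8 monocyte and interstitial macrophage markers, 3 were higher and 4 lower, and of 7 epithelial and endothelial markers 1 was higher and 4 lower. The gate named above, if it held for these libraries, would leave out CD11b+ granulocytes and cells without CD45, such as hepatocytes. The part of these cells in the levels below was not tested, and in bulk RNA fewer cells of a type and less RNA per cell cannot be told apart.

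Of the 10 class I and immunoproteasome genes, 6 were higher in Tumor libraries, none was lower and 4 were not called. Nlrc5 and Tap1 rose most, 1.40-fold and 1.39-fold, and Tap2 rose 1.20-fold. H2-K1, B2m and H2-D1 rose by 7.53%, 6.07% and 5.80%. Tapbp and the 3 immunoproteasome genes did not pass the test. Of all genes tested, 53.8% were called in either direction, 29.0% as higher and 24.8% as lower. The median log2 fold change was 0.09 over the 10 genes and 0.02 over all genes tested. CPM of the groups did not overlap for 7 of the 10 genes, 6 of them higher and 1 lower in Tumor, against 75.1% of all genes tested. All 10 genes passed the filter on low counts. These counts depended on the scaling. With library sizes set on the 14 AM marker genes, all 10 were called higher, with log2 fold changes from 0.33 for Psmb10 to 0.87 for Nlrc5. The median over all genes tested then moved from 0.02 to 0.40, and the share of higher genes among all calls from 53.9% to 89.4%. The 14 markers did not move together, with log2 fold changes from -2.13 to 0.96 under TMM scaling. On the scaling set by them, 5 of them were higher and 8 lower.

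**Figure D1:**
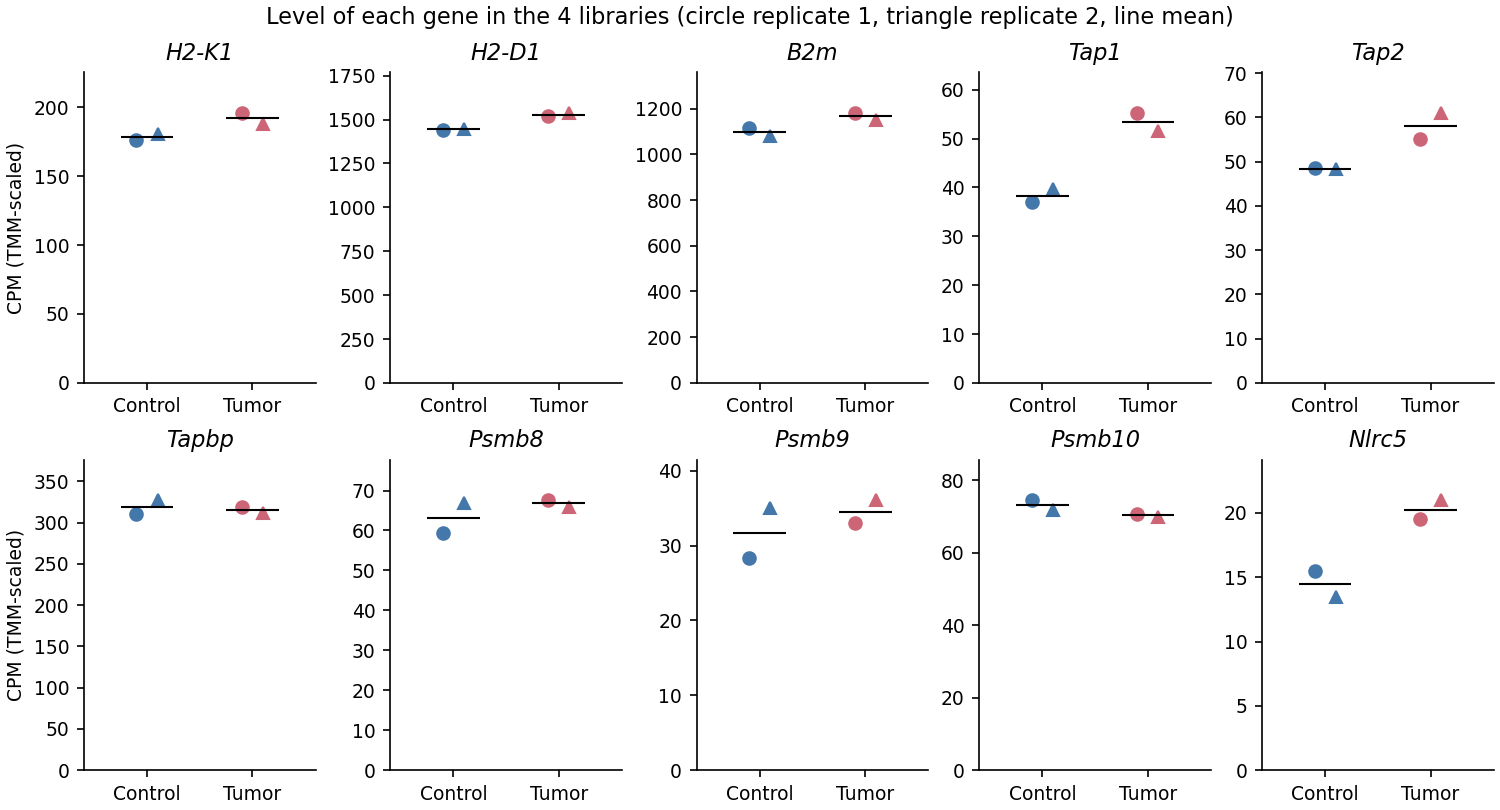
CPM scaled by TMM (vertical axis, from 0) of each of the 10 genes in the 2 Control and 2 Tumor libraries, where circles are replicate 1, triangles replicate 2 and lines group means. The groups stand apart for Tap1, from 37.0 and 39.6 to 55.3 and 51.5 CPM, and for Nlrc5, and overlap for Tapbp, Psmb8 and Psmb9.

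Expression per length put the light chain first. Divided by the gene length in the table, mean Control levels were 1279 CPM per kb for B2m, 560.0 for H2-D1, 96.6 for Tapbp, 68.4 for H2-K1, 42.9 for Psmb10, 23.1 for Psmb8, 12.8 for Tap2, 8.67 for Psmb9, 6.99 for Tap1 and 1.70 for Nlrc5. The ranges of neighbours in this order did not overlap in Control. In the Tumor libraries the order was the same except that Tap1, at 9.75 CPM per kb, and Psmb9, at 9.44, exchanged places with overlapping ranges. The lower ranks depended on the length taken. With the length of the principal transcript, B2m and H2-D1 stayed first and Nlrc5 last, while H2-K1, at 110.2 CPM per kb in Control, overlapped Tapbp, at 109.9. Psmb9, at 23.5, then lay above Tap2, at 14.1, and Tap1, at 12.96, in every library, and Tap1 and Tap2 overlapped in the Tumor libraries.

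H2-D1 and B2m were the most highly counted members, and both classical heavy chains rose slightly with their light chain. H2-D1 (ENSMUSG00000073411, plus strand of chromosome 17, 35262730 to 35267499, build GRCm38) was at 1442 and 1447 CPM in Control and at 1518 and 1538 CPM in Tumor libraries. Both Tumor libraries lay above both Control libraries, by 0.08 ± 0.0183 on the log2 scale (SE), with an edgeR adjusted p of 0.000451. B2m (ENSMUSG00000060802, plus strand of chromosome 2, 122147686 to 122153083), which encodes beta-2-microglobulin, was at 1117 and 1082 CPM in Control and at 1182 and 1152 CPM in Tumor libraries. Its log2 change amounted to 0.09 ± 0.0210 (SE) at an adjusted p of 0.00113 in edgeR, and without Control replicate 2 it was 0.04 and not called, with an adjusted p of 0.153. H2-K1 (ENSMUSG00000061232, minus strand of chromosome 17, 33996017 to 34000333) was at 176.3 and 180.5 CPM in Control and at 195.9 and 187.8 CPM in Tumor libraries. The gap between the nearest libraries of the groups was narrow, and the log2 change of 0.10 ± 0.0356 (SE) stood at an adjusted p of 0.0145 in edgeR. This call was lost at a log2 change of a like size, 0.10, in the Wald test of DESeq2 (adjusted p of 0.105) and without Control replicate 2 (0.0586). It was lost at a smaller one, 0.088 with no filter on low counts (0.0758), 0.077 without Control replicate 1 (0.179) and 0.068 without Tumor replicate 1 (0.199).

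The proportions of heavy and light chain transcripts overlapped between the groups. Counts of H2-D1 per count of B2m were 1.29 and 1.34 in Control and 1.28 and 1.34 in Tumor libraries. Counts of H2-K1 per count of H2-D1 were 0.122 and 0.125 in Control and 0.129 and 0.122 in Tumor libraries. Each of these ratios is taken within a library and does not depend on scaling, and both overlapped between groups. An exact two-sided permutation test gave p = 0.667 for the first and p = 1 for the second, and with 2 libraries per group it cannot go below 0.333. Class I genes differ in sequence between mouse strains, and the BALB/c haplotype differs from that of the C57BL/6J reference. How reads from BALB/c class I alleles were assigned to the gene models was not tested, so levels of one class I gene against another carry this limit, whereas each gene is compared between groups of the same strain. The class II pseudogene H2-Ea-ps, which stands for a gene that C57BL/6J lacks in working form and BALB/c expresses, had 36.4 and 39.0 CPM in Control and 138.8 and 142.3 CPM in Tumor libraries. This gene was singled out after its values were seen.

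The promoter windows of these genes are shown because NLRC5 and interferon act on class I genes through short elements there. A further reason is that the windows of Tap1 and Psmb9 overlap. All windows are RefSeq sequences of the C57BL/6J build GRCm38.p6, from 250 bases before to 50 bases after the annotated start. Of the 10 genes, 8 had an entry, while Tap2 and Nlrc5 had none. Capitals mark letters that match, on either strand, an interferon regulatory factor element (IRF element, GAANNGAAA), a gamma-activated sequence (GAS, TTCNNNGAA), the core of the X2 box bound by CREB factors (TGACG), the Y box bound by NF-Y (CCAAT) or the NF-kB consensus.
H2-K1 (minus strand, chr17:34000298-34000597): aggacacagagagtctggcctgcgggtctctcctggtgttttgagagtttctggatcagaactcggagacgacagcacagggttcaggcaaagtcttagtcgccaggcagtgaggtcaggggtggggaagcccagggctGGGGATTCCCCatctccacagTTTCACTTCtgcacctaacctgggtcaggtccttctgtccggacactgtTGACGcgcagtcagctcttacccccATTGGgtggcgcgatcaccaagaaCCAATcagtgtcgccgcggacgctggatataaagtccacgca
H2-D1 (plus strand, chr17:35262844-35263143): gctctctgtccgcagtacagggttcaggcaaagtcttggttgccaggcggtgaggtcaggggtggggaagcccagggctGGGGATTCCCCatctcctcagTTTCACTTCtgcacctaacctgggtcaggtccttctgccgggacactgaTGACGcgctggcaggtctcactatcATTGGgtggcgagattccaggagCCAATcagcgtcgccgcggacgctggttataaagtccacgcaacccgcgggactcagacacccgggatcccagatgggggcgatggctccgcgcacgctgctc
B2m (plus strand, chr2:122147437-122147736): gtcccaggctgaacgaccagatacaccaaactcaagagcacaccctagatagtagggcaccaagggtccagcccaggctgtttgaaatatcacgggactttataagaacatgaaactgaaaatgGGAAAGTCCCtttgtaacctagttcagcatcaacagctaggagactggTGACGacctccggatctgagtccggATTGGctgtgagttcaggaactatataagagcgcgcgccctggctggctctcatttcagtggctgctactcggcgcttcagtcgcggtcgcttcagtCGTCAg
Tap1 (plus strand, chr17:34187306-34187605): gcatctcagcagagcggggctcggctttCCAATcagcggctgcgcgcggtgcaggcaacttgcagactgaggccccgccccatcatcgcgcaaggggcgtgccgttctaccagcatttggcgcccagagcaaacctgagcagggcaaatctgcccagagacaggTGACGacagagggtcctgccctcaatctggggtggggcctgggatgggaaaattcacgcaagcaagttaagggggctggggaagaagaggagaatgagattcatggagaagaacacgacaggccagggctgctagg

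In both heavy chain promoters the same matches followed each other in the same order. An NF-kB match came first, read on both strands as overlapping matches shifted by 1 base, the IRF element began 21 bases further on, the X2 core 49 bases after that and the first Y box 25 bases after the X2 core. A second Y box followed after 24 bases in H2-K1 and 23 bases in H2-D1. B2m held an NF-kB match, and its X2 core and Y box also began 25 bases apart. Apart from these NF-kB matches, no match overlapped another in the windows shown. In the Tap1 window the Y box came first and the X2 core began 136 bases further on, whereas in H2-K1, H2-D1 and B2m an X2 core came first. Tap1 and Psmb9 are divergent neighbours, with RefSeq starts 226 bases apart and windows that overlap by 275 bases. The X2 core and the Y box of the Tap1 window are the same letters as those found in the Psmb9 window. Psmb8 held a GAS match, Tapbp held Y boxes alone, and the window of Psmb10 held none of these letters. Across the 8 windows, a Y box was found in 6, an X2 core in 5, an NF-kB match in 3, an IRF element in 2 and a GAS in 1. Among all 32851 promoter windows of the same length, the shares were 37.4%, 20.8%, 8.46%, 7.52% and 8.3%. A match describes letters and not a bound site.

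The transporter genes and the transactivator had larger fitted rises than the chains, a difference between genes that was not itself tested. Tap1 (ENSMUSG00000037321, plus strand of chromosome 17, 34187553 to 34197225) was at 37.0 and 39.6 CPM in Control and at 55.3 and 51.5 CPM in Tumor libraries. The groups lay well apart, with a log2 change of 0.48 ± 0.0702 (SE) at an adjusted p of 1.38e-06 in edgeR. Tap2 (ENSMUSG00000024339, plus strand of chromosome 17, 34203527 to 34216321) was at 48.5 and 48.3 CPM in Control and at 55.0 and 61.1 CPM in Tumor libraries. The Tumor pair was more spread than the Control pair, and the log2 change amounted to 0.26 ± 0.0656 (SE) at an adjusted p of 0.00127 in edgeR. Nlrc5 (ENSMUSG00000074151, plus strand of chromosome 8, 94434356 to 94527272) had the fewest reads of the members, with 290 and 212 counts in Control and 338 and 412 in Tumor libraries. These correspond to 15.5 and 13.4 CPM against 19.5 and 20.997 CPM, a log2 change of 0.48 ± 0.110 (SE) at an adjusted p of 0.000490 in edgeR. Tap1, Tap2 and Nlrc5 were called higher under each of 14 alternative fits, which covered scalings, filters, tests, the replicate block and leaving out each library. Among all genes tested, 23.1% had a larger rise than Tap1 and 22.97% a larger rise than Nlrc5.

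Tapbp (ENSMUSG00000024308, plus strand of chromosome 17, 33915899 to 33929288) was at 309.8 and 327.3 CPM in Control and at 319.1 and 311.9 CPM in Tumor libraries. The groups overlapped, and the log2 fold change of -0.01 had a 95% interval from -0.08 to 0.05 and an edgeR adjusted p of 0.745. Its gene model overlaps that of Zbtb22 on the same strand over 3421 bases, and Tap1 overlaps Psmb9 on the opposite strand over 212 bases, and the strandedness of the counting was not given in the sources used here.

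Markers of other antigen-presenting cells and of lymphocytes were higher beside Tap1, Tap2 and Nlrc5. Of 8 dendritic cell markers 4 were higher and 1 lower, with a summed level of 13.98 and 15.1 CPM in Control and 45.1 and 44.1 CPM in Tumor libraries. Of 6 B cell markers 5 were higher, summing to 6.62 and 6.91 CPM against 13.2 and 14.9 CPM. Of 8 T and NK cell markers 6 were tested and 5 were higher, summing to 3.15 and 3.42 CPM against 18.999 and 20.5 CPM. No marker of these 3 lists was at 0 in both libraries of a group, but 4 of the 8 T and NK cell markers were at 3 counts or fewer in both Control libraries. Any of those 4 that was tested passed the filter through the Tumor libraries and had to differ. With at least 10 counts required in every library, 2 T and NK cell, 2 dendritic cell and 4 B cell markers were called higher. In the Wald test of DESeq2 these numbers were 4, 4 and 3. The same gate would leave out B, T and NK cells, and dendritic cells as far as they lack SiglecF. The part of these cell types in the rises of Tap1, Tap2 and Nlrc5 was not tested.

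**Figure D2:**
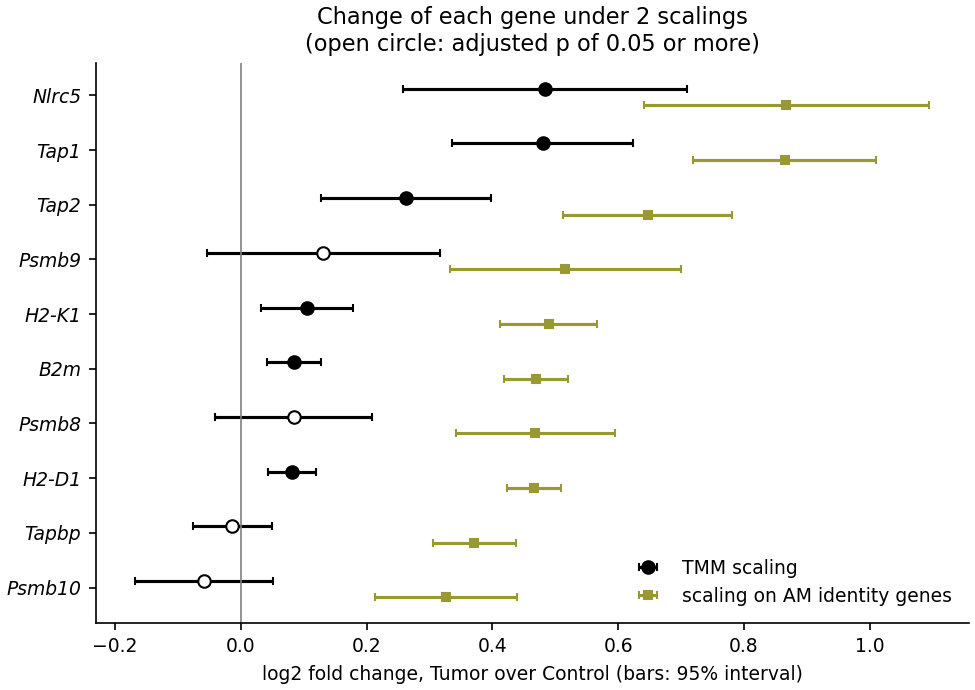
Log2 fold change of Tumor over Control (horizontal axis) with its 95% interval for the 10 genes, ordered by size, under TMM scaling (circles, open where the adjusted p was 0.05 or more) and under scaling on the 14 AM identity genes (squares). Under TMM scaling Nlrc5 and Tap1 lie at 0.48, and under the other scaling all 10 intervals lie above 0.

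None of the 3 immunoproteasome genes passed the test under TMM scaling, whereas the subunits they replace were lower under that scaling. Psmb8 (ENSMUSG00000024338, plus strand of chromosome 17, 34197721 to 34201454), which encodes the chymotrypsin-like immunosubunit LMP7, was at 59.3 and 66.9 CPM in Control and at 67.6 and 65.9 CPM in Tumor libraries. Its log2 fold change of 0.08 had a 95% interval from -0.04 to 0.21 and an edgeR adjusted p of 0.254, and under scaling by total counts alone it was 0.15 and called, with an adjusted p of 0.0380. Without Control replicate 1 it was -0.014 and without Control replicate 2 it was 0.15, neither of them called. Psmb9 (ENSMUSG00000096727, minus strand of chromosome 17, 34181988 to 34187764), which encodes LMP2, was at 28.4 and 35.04 CPM in Control and at 33.0 and 36.1 CPM in Tumor libraries. Control replicate 1 stood below the other libraries, and the log2 fold change of 0.13 had a 95% interval from -0.05 to 0.32 and an edgeR adjusted p of 0.228. Without Control replicate 2 it was 0.26 and called, with an adjusted p of 0.0354, and without Control replicate 1 it was -0.03. Psmb10 (ENSMUSG00000031897, minus strand of chromosome 8, 105935735 to 105938444), which encodes MECL-1, was at 74.6 and 71.7 CPM in Control and at 70.8 and 69.9 CPM in Tumor libraries. Both Tumor libraries lay just below both Control libraries, and the log2 fold change of -0.06 had a 95% interval from -0.17 to 0.05 and an edgeR adjusted p of 0.377.

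All 3 constitutive catalytic subunits fell under TMM scaling, whereas on the AM marker scaling only Psmb6 remained lower, Psmb5 was not called and Psmb7 was higher. Psmb6 alone of the 3 was also called with total counts as library sizes and in the Wald test of DESeq2, where the log2 changes of Psmb5 and Psmb7 were -0.20 and -0.15 in the former and -0.27 and -0.22 in the latter. The call of Psmb5 was also lost at -0.21 without Control replicate 2 (adjusted p of 0.144) and at -0.17 without Tumor replicate 2 (0.175). Psmb6 was at 147.0 and 138.9 CPM in Control and at 98.4 and 97.4 CPM in Tumor libraries, a log2 change of -0.55 ± 0.0428 (SE) at an adjusted p of 9.67e-12 in edgeR. Psmb5 was at 25.9 and 28.8 CPM against 24.3 and 21.2 CPM, with a log2 fold change of -0.27 and an edgeR adjusted p of 0.0192. Psmb7 was at 49.1 and 48.9 CPM against 41.9 and 42.7 CPM, with a log2 fold change of -0.21 and an edgeR adjusted p of 0.00889.

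Ratios of each immunosubunit to the subunit it replaces were taken within each library, so that library size and scaling cancel. All 3 ratios were higher in both Tumor libraries than in both Control libraries. CPM of the groups did not overlap for 75.1% of all genes tested, and no such share was taken over other ratios. With levels per kb of gene length, Psmb8 per Psmb5 was 0.752 and 0.764 in Control and 0.916 and 1.02 in Tumor libraries, a log2 difference of 0.35 with a pooled SD of 0.0793. Psmb9 per Psmb6 was 0.0988 and 0.129 in Control and 0.171 and 0.189 in Tumor libraries, a log2 difference of 0.67 with a pooled SD of 0.206. Psmb10 per Psmb7 was 3.05 and 2.94 in Control and 3.39 and 3.29 in Tumor libraries, a log2 difference of 0.16 with a pooled SD of 0.0333. Each difference exceeded the spread within groups, and each exact two-sided permutation test gave p = 0.333, the smallest that 2 libraries per group allow. A ratio that moves shows unequal change of its genes and not which of them changed.

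The level of a ratio, unlike its difference between groups, depended on the gene length. With the length of the principal transcript, Psmb8 per Psmb5 went from 1.26 and 1.28 to 1.54 and 1.72, and Psmb10 per Psmb7 from 1.34 and 1.30 to 1.49 and 1.45. Psmb9 per Psmb6 went from 0.114 and 0.149 to 0.198 and 0.219. Psmb9 was thus below Psmb6 in every library by either length, Psmb10 was above Psmb7, and whether Psmb8 was above Psmb5 depended on the length taken.

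**Figure D3:**
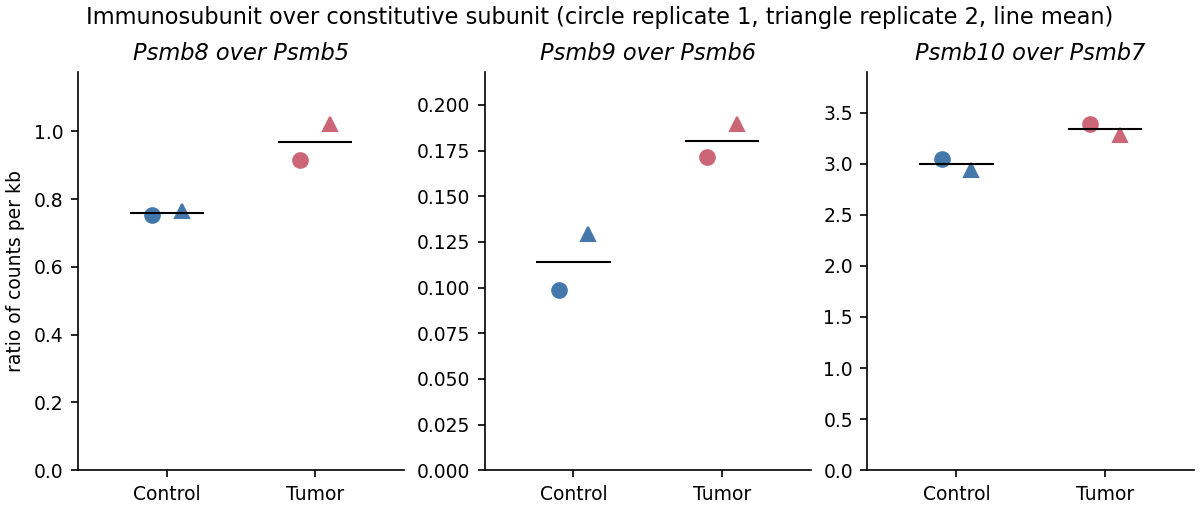
Ratio of each immunoproteasome subunit to the constitutive subunit it replaces, per kb of gene length (vertical axis), in the 2 Control and 2 Tumor libraries, where circles are replicate 1 and triangles replicate 2. Both Tumor libraries lie above both Control libraries in each of the 3 pairs, as for Psmb9 per Psmb6 with 0.171 and 0.189 against 0.0988 and 0.129.

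Tap1 was also set against its divergent neighbour. Tap1 per Psmb9, per kb, was 0.870 and 0.755 in Control and 1.12 and 0.953 in Tumor libraries, a log2 difference of 0.35 with a pooled SD of 0.155 and an exact permutation p of 0.333. Tap1 per Tap2, whose products form 1 transporter, was 0.526 and 0.566 in Control and 0.693 and 0.582 in Tumor libraries, groups that did not overlap but came close.

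Outside these 10 genes, lists of the pathway held 129 genes in the table, of which 122 were tested and 84 called. Of all genes tested, 53.8% were called under TMM scaling, 29.0% as higher and 24.8% as lower. The counts of each list below stand beside these shares. Among 17 nonclassical class I genes, 11 were tested, 4 were higher, 5 lower and 2 not called, at a median log2 change of 0.08, and on the AM marker scaling 7 were higher and 3 lower. H2-T24 was at 6.56 and 7.16 CPM in Control and at 27.2 and 27.2 CPM in Tumor libraries, a log2 change of 1.99 ± 0.117 (SE) at an adjusted p of 1.72e-14 in edgeR. H2-T23, which encodes Qa-1, the ligand of NKG2A receptors, was at 65.7 and 71.9 CPM against 106.3 and 106.4 CPM, a log2 fold change of 0.63 with an edgeR adjusted p of 1.82e-11. H2-Q10 and H2-T22 rose by 0.56 and 0.27 on the log2 scale.

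The Q region genes H2-Q1, H2-Q2, H2-Q4, H2-Q6 and H2-Q7 were lower under TMM scaling, while on the AM marker scaling the log2 fold changes of H2-Q4 and H2-Q6 turned to 0.26 and 0.020. H2-Q7, which encodes the Qa-2 antigen, was at 63.4 and 56.7 CPM in Control and at 35.1 and 39.4 CPM in Tumor libraries, a log2 fold change of -0.69. H2-Q6 was at 138.8 and 138.8 CPM against 110.1 and 105.6 CPM. H2-Q2 had 27 and 10 counts against 3 and 4, so that it passed the filter on low counts only through the Control libraries. Its call among the 5 lower nonclassical genes is therefore no support. With at least 10 counts required in every library, 4 of the nonclassical genes were lower. Calls were lost for H2-Q2 and H2-T22 without Control replicate 1 and for H2-Q4 without Control replicate 2 or Tumor replicate 2. These genes belong to 1 family of related sequences, so that their counts are uncertain where reads could be split between them, which was not tested. The neighbouring pseudogenes H2-K2 and H2-Q5, singled out after their values were seen, had log2 fold changes of -0.42 and -0.62. Of 5 class I-like genes, Fcgrt, the receptor that recycles IgG and albumin, Cd1d1, which presents lipids, and Mr1, which presents vitamin B metabolites, had log2 fold changes of -0.35, -0.27 and -0.23 and were called, and Cd1d2 and Hfe were not. Fcgrt alone of these was called without Control replicate 2, where the adjusted p was 0.0755 for Cd1d1 and 0.056 for Mr1, and without Tumor replicate 2, where it was 0.0508 and 0.119. The call of Mr1 was also lost at -0.17 with total counts as library sizes (edgeR adjusted p of 0.0761). In the Wald test of DESeq2 it was lost at -0.24 (adjusted p of 0.0817). On the AM marker scaling Fcgrt, Cd1d1 and Mr1 turned to 0.031, 0.11 and 0.15.

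**Figure D4:**
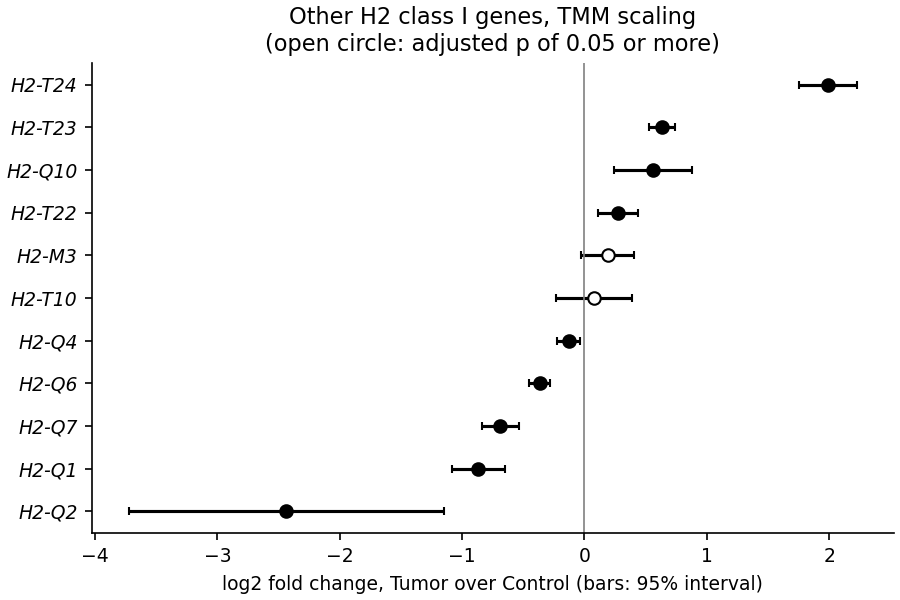
Log2 fold change of Tumor over Control with its 95% interval (horizontal axis) for the 11 nonclassical class I genes that were tested, under TMM scaling, with open circles for genes not called. H2-T24 and H2-T23 lie to the right at 1.99 and 0.63 and H2-Q7 to the left at -0.69, while H2-Q4 and H2-Q6 turn above 0 on the AM marker scaling.

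Genes for peptide loading and trimming were mostly lower under TMM scaling. Of 9 genes, 2 were higher, 5 lower and 2 not called, with a median log2 fold change of -0.17, whereas on the AM marker scaling 7 were higher and none lower. Calr, the chaperone calreticulin of the loading complex, was at 1454 and 1437 CPM in Control and at 1064 and 1107 CPM in Tumor libraries, a log2 fold change of -0.41. Canx, Pdia3, Tapbpl and Erap1 had log2 fold changes of -0.26, -0.18, -0.33 and -0.17, and the call of Tapbpl was lost without Tumor replicate 2. The cytosolic aminopeptidase gene Npepps was at 133.8 and 131.5 CPM against 202.1 and 191.9 CPM and rose by 0.57.

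Structural subunits of the proteasome were lower or not called under TMM scaling, except that Psmd13 of the cap was called higher at 0.16. That call was lost at 0.16 in the Wald test of DESeq2 (adjusted p of 0.105), at 0.12 without Control replicate 2 (0.159) and at 0.081 without Tumor replicate 2 (0.281). Of 11 genes of the 20S core, 4 were lower and 7 not called, with Psma3 at -0.30, Psma6 at -0.22 and Psma4 at -0.19 on the log2 scale and a median of -0.02 over the 11. Of 18 genes of the 19S cap, 13 were lower, 1 higher and 4 not called, with a median of -0.24, and Psmd7, Psmd12 and Adrm1 at -0.46, -0.38 and -0.37. On the AM marker scaling 10 core genes and 10 cap genes were higher and none was lower. Of 10 activator and assembly genes, 4 were lower and 6 not called, whereas on the AM marker scaling 6 were higher and none lower. Psme1 and Psme2 encode the interferon-inducible PA28 activator, and Psme1 was at 98.4 and 102.1 CPM in Control and at 105.6 and 107.2 CPM in Tumor libraries with an edgeR adjusted p of 0.101. Psme2 was at 48.8 and 46.8 CPM against 39.3 and 37.7 CPM, a log2 fold change of -0.31 that was 0.070 on the AM marker scaling.

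Partners and regulators of NLRC5 moved in both directions. Of 12 transcription regulators, 5 were higher, 5 lower and 2 not called, where 29.0% and 24.8% of all genes tested were called higher and lower. On the AM marker scaling 10 regulators were higher and 1 lower. Within the RFX complex, Rfxap was at 7.10 and 6.59 CPM in Control and at 13.8 and 12.03 CPM in Tumor libraries, a log2 fold change of 0.91, whereas Rfx5 was at 20.4 and 19.9 CPM against 14.3 and 11.5 CPM, a log2 fold change of -0.65. Within NF-Y, Nfyb rose by 0.55 and Nfya had a log2 fold change of -0.45. Of the interferon response factors, Irf9, the DNA-binding subunit of the type I interferon complex, was at 13.9 and 18.9 CPM against 35.2 and 33.7 CPM and rose by 1.08, and Irf2 and Stat2 rose by 0.56 and 0.22. Irf1 and Irf8 had log2 fold changes of -0.16 and -0.14 and were called, and on the AM marker scaling these were 0.23 and 0.25. Irf8 was not called without Control replicate 2, nor Stat2 without Control replicate 1 or Tumor replicate 1.

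Most genes of interferon receptors and their kinases rose. Of 9 genes, 7 were higher and 2 lower under TMM scaling, at a median log2 change of 0.63, and all 9 were higher on the AM marker scaling. Ifngr1 was at 159.4 and 154.4 CPM in Control and at 288.5 and 280.8 CPM in Tumor libraries, a log2 fold change of 0.86. Jak2, the kinase of the interferon-gamma receptor, was at 55.2 and 56.4 CPM against 136.6 and 141.5 CPM and rose by 1.32. Ifnar1, Ifnar2, Jak1 and Ifngr2 rose by 0.63, 0.99, 0.34 and 0.19, and Socs1, an inhibitor of this signalling, by 1.31. Tyk2 and Socs3 had log2 fold changes of -0.18 and -0.13 under TMM scaling and of 0.20 and 0.25 on the AM marker scaling. The calls of Ifngr2 and Socs3 were lost without Control replicate 2.

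Of 11 interferon-gamma target genes, 6 were higher, 2 lower and 3 not called, and on the AM marker scaling 8 were higher and 2 lower. Iigp1, an immunity-related GTPase, had 4 and 1 counts in Control and 26 and 35 in Tumor libraries, so that it passed the filter on low counts only through the group where it was high and its call among the 6 is no support. With at least 10 counts required in every library, 5 were higher. Ciita, the class II counterpart of Nlrc5, was at 3.25 and 3.04 CPM in Control and at 9.87 and 9.22 CPM in Tumor libraries, a log2 fold change of 1.59, while Cxcl10, a chemokine for T cells, was at 29.1 and 29.5 CPM against 9.53 and 10.2 CPM, a log2 fold change of -1.56. Of 12 type I interferon targets, 11 were tested, 4 were higher and 7 not called, with Oasl2 and Irf7 higher by 3.05 and 2.15. Usp18, at 3 and 3 counts in Control and 19 and 23 in Tumor libraries, likewise passed the filter only through the Tumor libraries, and its call among the 4 is no support. The number of these targets called higher was 6 with total counts as library sizes and 8 on the AM marker scaling. Of 6 class II genes, 5 were higher and 1 was not called, with H2-Eb1, H2-Ab1 and H2-Aa higher by 1.99, 1.54 and 1.496. Of 6 genes linked to cross-presentation, 1 was higher, 3 lower and 2 not called, with Rab27a at 1.96, Batf3 at -0.72 and Cybb, the catalytic NADPH oxidase subunit, at -0.70. On the AM marker scaling 3 were higher and 1 lower, and Batf3 was not called there, in the Wald test of DESeq2, or without either Control library or Tumor replicate 2. The dendritic cell, B cell and T and NK cell markers given above were higher in the same libraries as the class II genes, and their part in these values was not tested.

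**Figure D5:**
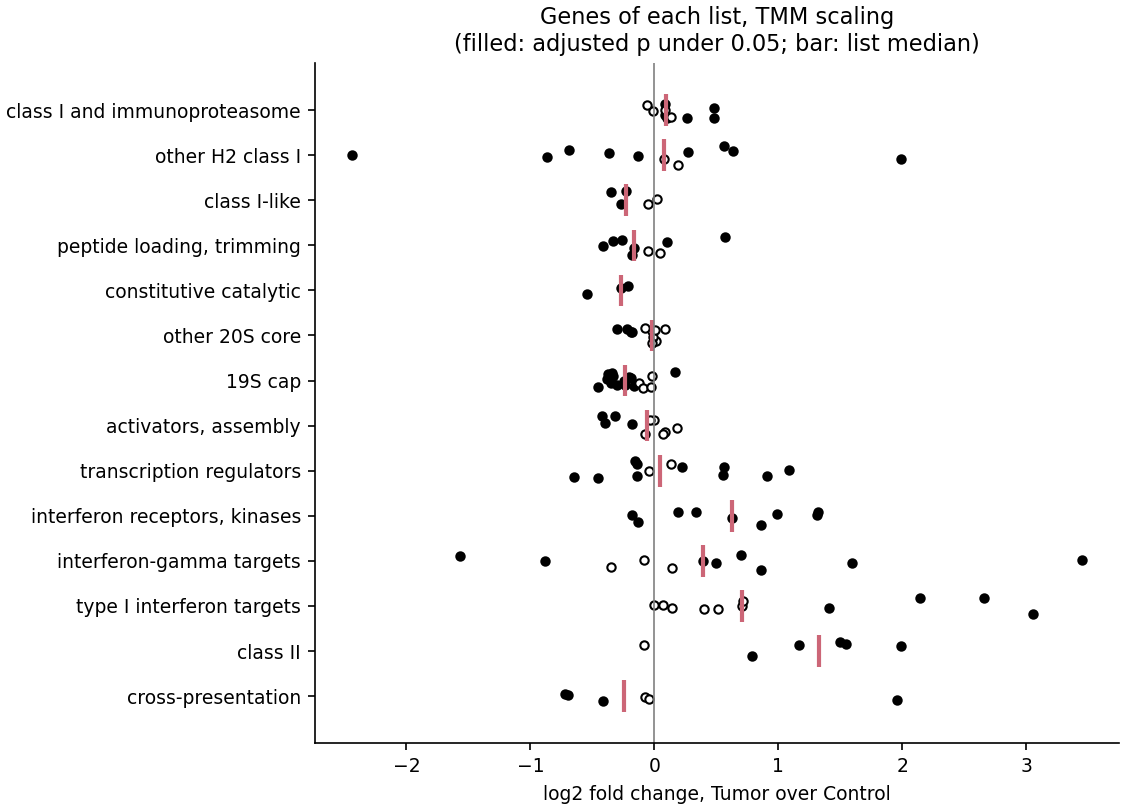
Log2 fold change of Tumor over Control (horizontal axis) of each tested gene in the lists of the pathway, under TMM scaling, where 1 point is 1 gene and the vertical bar is the median of the list. The median is 0.63 for interferon receptors and kinases, 1.33 for class II genes and -0.24 for the 19S cap, and on the AM marker scaling 10 cap genes were higher and none was lower.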

How the data were processed

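Total RNA was extracted with TRIzol and sequenced, and per the methods of the study reads were aligned with HISAT2 (2.0.5 in the submitters' processing notes) and assigned to genes with featureCounts. The values deposited by the authors are raw, whole-number counts for each gene. FPKM values that the study derived from counts were not used here. Annotation release, strandedness and handling of reads with several matches were not given in the sources used here. Of the gene identifiers, 54409 were in GENCODE M 21, 98.3% of them at the same positions, among them 7 of the 10 genes described, and positions are therefore named as GRCm38.

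Libraries were grouped by their labels. Counts were fitted in R 4.3.3 with edgeR 4.0.16 (glmQLFit and glmQLFTest, group as the single term, TMM scaling with factors from 0.977 to 1.02, 2 residual degrees of freedom), after filterByExpr at a minimum count of 10 had left 14256 genes. Total counts of 16167147 to 19205737 bound the precision. The code was tested on simulated data. SDs are over 2 libraries. Ratios were computed from counts per kb of the gene length in the table. Alternatives used DESeq2 1.42.0, limma 3.58.1 (voom), other scalings and filters, and leaving out each library, and the principal transcript length was added after seeing the data.

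The 10 genes and the lists were chosen with earlier results of these data known, and 1 gene of the regulator list is not reported here. Named were the 10 genes, genes of the class I, loading, constitutive subunit, activator, regulator and interferon receptor lists where needed, and at most the 3 largest called changes of each other list. Psmd13 and 3 AM markers were named outside this rule after their values were seen.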

Additional observations from a re-analysis of the deposited data

How the results depend on the processing

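Of the log2 fold changes of the 10 genes under 14 alternative fits, 128 kept their side of the threshold, 6 lost the call, 4 gained it and 2 changed sign with a call on either side, and of the other named genes 1022, 51, 12 and 27 did. Signs of uncalled values, such as that of Psmb9, also changed. Scaling on the 14 AM marker genes called all 10 members higher and 9813 genes in all, and each change of sign among these genes that involved a call came from it: Tapbp 0.37, Psmb10 0.33, H2-Q4 0.26, H2-Q6 0.020, Mr1 0.15, Cd1d1 0.11, Fcgrt 0.031, Canx 0.12, Pdia3 0.21, Tapbpl 0.050, Erap1 0.22, Lap3 0.34, Psmb5 0.12, Psmb7 0.17, Psme2 0.070, Psme4 0.21, Pomp 0.38, Psmg1 0.35, Nfyc 0.34, Creb1 0.24, Irf1 0.23, Irf8 0.25, Tyk2 0.20, Socs3 0.25, Psma3 0.080, Psma4 0.20, Psma6 0.17, Psmd12 0.0044 and Adrm1 0.013. Requiring a log2 fold change of at least 1 left 2268 of 7671 genes, 0 of the 10 members and 17 of 84 genes of the other lists. Members called higher numbered 7 with total counts as library sizes and 5 with no filter, with the Wald test of DESeq2 or with an adjusted p under 0.01.

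Leaving out each library gave 6515 to 7470 genes, 5 to 6 members higher, 0 to 0 lower and 75 to 84 genes of the other lists, where a lone library is assumed to vary like those of the other group. The log2 differences of the ratios then ranged from 0.27 to 0.43 for Psmb8 over Psmb5, 0.48 to 0.87 for Psmb9 over Psmb6 and 0.13 to 0.18 for Psmb10 over Psmb7. Deviations of Control 1 and Tumor 1 from their group means correlated at -0.00278, so no shared effect of the replicate number was seen. Whether libraries of the same replicate number were handled together was not given in the sources used here. With the replicate block 7446 genes and 6 members were called. For a gene with few reads, such as Nlrc5, small changes may not be detectable at this depth.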
